A study of Mus musculus with 3 samples.

Results

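The genes described here are 8 neurotrophin and axon guidance genes, Bdnf, Ngfr, Ntrk2, Sema3a, Slit2, Slit3, Robo1 and Robo2. They were chosen by symbol as cues that support or repel corneal nerves and were matched by Ensembl ID. All 8 were found among the 30406 genes listed for every library. The data are UMI counts, that is counts of tagged RNA molecules, from nuclei of mouse cornea in 3 droplet libraries. The library labelled WT came from untreated wild-type mice, the library labelled KO from untreated mice without Aire, and the library labelled KO+PBS from mice without Aire given phosphate-buffered saline for 14 days. Aire controls the display of self-antigens in the thymus, and its loss gives an autoimmune dry eye. Each library pooled snap-frozen corneas of 5 mice aged 7 weeks, so there was 1 library per group and no replicate check. The series text gives a different age and treatment day and names a lacripep arm, which was not analysed here.

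The cornea is densely supplied by sensory axons of the trigeminal ganglion, whose endings lie in the stroma and between epithelial cells. Neurotrophins are secreted survival and growth factors for such neurons, and they act through Trk receptor kinases and the shared receptor Ngfr. Sema3a and the Slits are secreted guidance cues that can turn growth cones away, Sema3a through neuropilin and plexin complexes and the Slits through Robo receptors. The nuclei of these neurons lie outside the cornea, so nuclei of corneal tissue do not report on the axons themselves.

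Levels are given as UPM, the UMIs of a gene scaled to a total of 1000000 UMIs over the shared genes, with exact 95% Poisson intervals. These intervals cover counting error only. The libraries held 256852883, 352627863 and 178988562 UMIs in WT, KO and KO+PBS, from 96587, 107031 and 114357 barcodes, with 2261, 2980 and 1432 UMIs in the median barcode. Pairs of libraries shared between 2833 and 3379 barcode sequences, and doublets were kept. Aire had 15, 27 and 68 UMIs in that order, so the targeted gene did not check the labels, and each library is named as labelled. The Y-linked gene Ddx3y stood at 0.211 UPM in WT, 0.211 in KO and 5.97 in KO+PBS. KO+PBS also stood apart in markers of tissue next to the cornea, with summed lens markers at 7058 UPM against 506 in WT and 200 in KO, and summed melanocyte markers at 4216 against 493 and 143. A level summed over a library cannot tell fewer cells of a type from less RNA per cell.

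Slit2 and Slit3 each carry a miR-218 hairpin in an intron, on the strand of the host gene. These were shown because the 2 hosts followed different orders over the libraries, given below, while both encode the same mature miR-218-5p. The mature products of the other arm, miR-218-1-3p and miR-218-2-3p, differ in sequence and are not shown. The 5p sequences from RefSeq (GRCm38.p6), with the seed in capitals, lie at chr5:48223966-48223986 within Slit2 and at chr11:35616840-35616860 within Slit3, both on the plus strand. The microRNA itself was not measured by these libraries.
miR-218-5p from the Slit2 intron: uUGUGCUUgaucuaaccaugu
miR-218-5p from the Slit3 intron: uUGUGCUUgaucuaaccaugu

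The 250 bases before the RefSeq starts of Slit2, Slit3 and Sema3a are shown because Slit3 and Sema3a stood above a 2-fold ratio between KO and WT and Slit2 did not. The windows (RefSeq, GRCm38.p6, plus strand) are chr5:47982905-47983154 for Slit2, chr11:35121206-35121455 for Slit3 and chr5:13396534-13396783 for Sema3a. Each CG pair is in capitals. The Sema3a window lies inside the longer gene span of GENCODE M21, before a RefSeq start that lies further downstream. Most of the Slit3 window also lies inside its GENCODE span, which starts at 35121224. The GENCODE span of Slit2 starts at 47983138, so only the last bases of its window lie inside.
Slit2: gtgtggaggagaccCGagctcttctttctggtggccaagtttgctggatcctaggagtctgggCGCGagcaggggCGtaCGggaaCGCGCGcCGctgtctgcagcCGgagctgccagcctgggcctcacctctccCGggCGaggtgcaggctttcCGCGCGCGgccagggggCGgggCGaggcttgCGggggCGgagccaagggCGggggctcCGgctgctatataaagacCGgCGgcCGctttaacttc
Slit3: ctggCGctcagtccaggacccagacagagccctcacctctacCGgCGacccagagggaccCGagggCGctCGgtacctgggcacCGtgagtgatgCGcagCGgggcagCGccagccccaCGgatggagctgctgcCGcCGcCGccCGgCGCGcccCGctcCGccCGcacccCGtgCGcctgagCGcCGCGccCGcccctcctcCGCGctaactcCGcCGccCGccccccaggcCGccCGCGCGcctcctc
Sema3a: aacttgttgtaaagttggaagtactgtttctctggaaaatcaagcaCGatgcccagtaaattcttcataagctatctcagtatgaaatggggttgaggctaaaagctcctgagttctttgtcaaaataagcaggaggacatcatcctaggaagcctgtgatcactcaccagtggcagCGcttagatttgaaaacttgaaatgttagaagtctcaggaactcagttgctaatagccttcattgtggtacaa
The Slit2 window held 25 CG pairs and 69.6% G or C, and the Slit3 window 35 and 78.8%. The Sema3a window held 2 CG pairs and 40.8% G or C. Over 32851 such windows of 27025 genes the median was 6 CG pairs and 52.4% G or C, and 17.9% held 20 or more pairs. The Slit windows thus held more CG pairs than the median window and the Sema3a window fewer. A link of CG content to the ratios between libraries was not tested. The letters TATAAA, searched on both strands, were found in the Slit2 window and not in the other two, and in 12.4% of all windows. The letters TGACGTCA, also searched on both strands, were in none of the windows of the 8 genes and in 1.55% of all windows. A match describes the letters and is no evidence of a bound site.

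**Figure D1:**
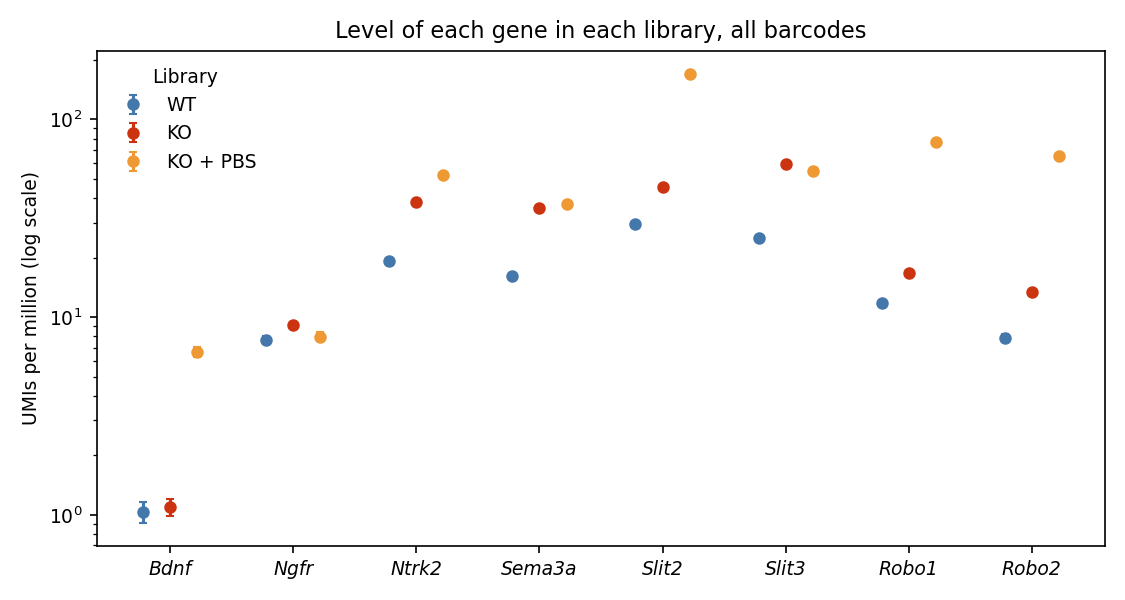
Level of the 8 genes in the 3 libraries, in UPM over all barcodes on a log scale, with points for the libraries and bars for 95% Poisson intervals. Slit2, Robo1, Robo2 and Bdnf stood far above the other libraries in KO+PBS, Slit3 and Sema3a were high in both knockout libraries, and the 3 points of Ngfr lay close together.

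Among the neurotrophin genes, Bdnf (ENSMUSG00000048482, chr2:109674700-109727007, GENCODE M21 on GRCm38 as for the spans below) encodes brain-derived neurotrophic factor, the ligand of TrkB. It was at 1.03 UPM in WT (0.907 to 1.16, 263 UMIs), 1.09 in KO (0.984 to 1.20, 383 UMIs) and 6.69 in KO+PBS (6.32 to 7.08, 1190 UMIs). The WT and KO intervals overlapped, and KO+PBS lay above both, 6.14-fold over KO. Ngfr (ENSMUSG00000000120, chr11:95568818-95587735), the shared neurotrophin receptor, was at 7.68 in WT (7.34 to 8.03), 9.14 in KO (8.83 to 9.46) and 7.95 in KO+PBS (7.54 to 8.37). Its WT and KO+PBS intervals overlapped, and KO lay 1.19-fold above WT, so Ngfr varied least of the 8. Ntrk2 (ENSMUSG00000055254, chr13:58806569-59133970) encodes TrkB, the kinase receptor of Bdnf. It was at 19.2 in WT (18.7 to 19.8), 38.1 in KO (37.5 to 38.7) and 52.4 in KO+PBS (51.4 to 53.5). The 3 Ntrk2 intervals were apart, in the order WT, KO, KO+PBS.

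Sema3a (ENSMUSG00000028883, chr5:13125414-13602565), the secreted semaphorin that repels sensory axons, was at 16.2 UPM in WT (15.7 to 16.7), 35.7 in KO (35.1 to 36.3) and 37.2 in KO+PBS (36.3 to 38.1). The knockout libraries differed by 1.04-fold, and both lay more than 2-fold above WT. Slit3 (ENSMUSG00000056427, chr11:35121224-35708507), a secreted Robo ligand, had nearly the same pattern. It was at 25.01 in WT (24.4 to 25.6), 59.2 in KO (58.4 to 60.0) and 55.1 in KO+PBS (54.0 to 56.2). Slit2 (ENSMUSG00000031558, chr5:47983138-48307733), its paralog, was at 29.6 in WT (29.0 to 30.3), 45.4 in KO (44.7 to 46.1) and 169 in KO+PBS (167 to 171). Of these 3 ligands Slit2 differed most between the knockout libraries, where Slit3 was slightly lower in KO+PBS. The ratio of Slit2 to Slit3 UMIs was 1.19 in WT, 0.766 in KO and 3.07 in KO+PBS.

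The receptors Robo1 (ENSMUSG00000022883, chr16:72308306-73046095) and Robo2 (ENSMUSG00000052516, chr16:73891839-74411825) bind Slits on growth cones and on other cells. Robo1 was at 11.8 UPM in WT (11.3 to 12.2), 16.7 in KO (16.3 to 17.1) and 77.1 in KO+PBS (75.8 to 78.4). Robo2 was at 7.84 in WT (7.503 to 8.19), 13.4 in KO (13.1 to 13.8) and 64.9 in KO+PBS (63.8 to 66.1). Both receptors followed the order of Slit2, with the 3 intervals apart and KO+PBS far above KO. The ratio of Robo1 to Robo2 UMIs changed less than that of the Slits, at 1.5, 1.24 and 1.19. Genes that overlap these loci on the same strand and that KO+PBS does not list were small, with at most 90 UMIs in a library. Bdnf has an antisense neighbour, Gm45346, with 1, 1 and 24 UMIs in WT, KO and KO+PBS, and whether the counting used the strand is not given in the sources used here.

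A gene was counted as higher or lower between 2 libraries when they held 50 or more of its UMIs together, its levels were at least 2-fold apart and the intervals were separate. With 1 library per group this rule sets a size and tests nothing. The comparisons share libraries, so they are not independent of each other. KO against WT asks how the untreated knockout cornea differed from the wild type. In it 2 of the 8 genes were higher and 0 lower, where 20.6% of all 20252 genes were higher and 8.63% lower, so the count lay near the background. Slit3 was higher by 1.24 on the log2 scale (1.20 to 1.28) and Sema3a by 1.14 (1.09 to 1.20). Ntrk2 had 0.99 (0.94 to 1.04), just short of the 2-fold limit, Robo2 0.78, Slit2 0.61 and Robo1 0.51. Ngfr had 0.25 and Bdnf 0.09, with an interval from -0.15 to 0.32. The median of the 8 was 0.70, and the median of all genes was 0.24. Centred on that median, 0 of the 8 were counted, with Slit3 at 1.00 and Sema3a at 0.90, while the whole table went from 4164 higher and 1748 lower to 2995 and 2622.

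KO+PBS against KO sets the saline-treated knockout beside the untreated one. Saline cannot be told apart here from the other ways in which this library differed, among them its gene list, its lens and melanocyte signal and summed photoreceptor markers at 2070 UPM against 69.8 in KO. Here 4 of the 8 genes were higher and 0 lower, where 39.9% of 22416 genes were higher and 4.7% lower. The share of the 8 was thus not far from that of all genes. Bdnf had a log2 ratio of 2.62 (2.45 to 2.79), Robo2 2.27 (2.22 to 2.32), Robo1 2.21 (2.16 to 2.25) and Slit2 1.90 (1.87 to 1.93). These 4 were counted under every scaling tried and without the low-UMI barcodes, while within the 25% of barcodes with the fewest UMIs Slit2 was at 95.8 UPM against 49.4, just short of 2-fold. Ntrk2 had 0.46, Sema3a 0.06, Slit3 -0.10 and Ngfr -0.20, all below the median gene at 0.63. Relative to that median, Slit2 was at 1.27 and Slit3 at -0.73, so the 2 Slits lay on opposite sides of it. Centring took the whole table from 8942 higher and 1053 lower to 6692 and 2891. Genes that span 300 kb or more, such as all of the 8 except Bdnf and Ngfr, had a median of 1.54 in this comparison over 583 genes, beside 0.18 for KO against WT.

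KO+PBS against WT shares a library with each comparison above. In it 7 of the 8 genes were higher and 0 lower, where 57% of 22138 genes were higher and 4.06% lower and the median gene had 1.27. Of the 583 genes that span 300 kb or more, as all of the 8 except Bdnf and Ngfr do, 77.7% were higher, with a median of 2.05. Robo2 had the largest log2 ratio of the 8 at 3.05, followed by Robo1 at 2.71, Bdnf at 2.70 and Slit2 at 2.51. Ntrk2 had 1.45, Sema3a 1.20, Slit3 1.14 and Ngfr 0.05 (-0.05 to 0.15). Centred on the median gene, Bdnf, Slit2, Robo1 and Robo2 were the 4 still counted higher, Ngfr at -1.22 was counted lower, and Sema3a at -0.067 and Slit3 at -0.13 changed sign. Centring took all genes from 12609 higher and 899 lower to 6558 and 5106. The direction of Sema3a and Slit3 in KO+PBS against WT therefore depends on the scaling.

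**Figure D2:**
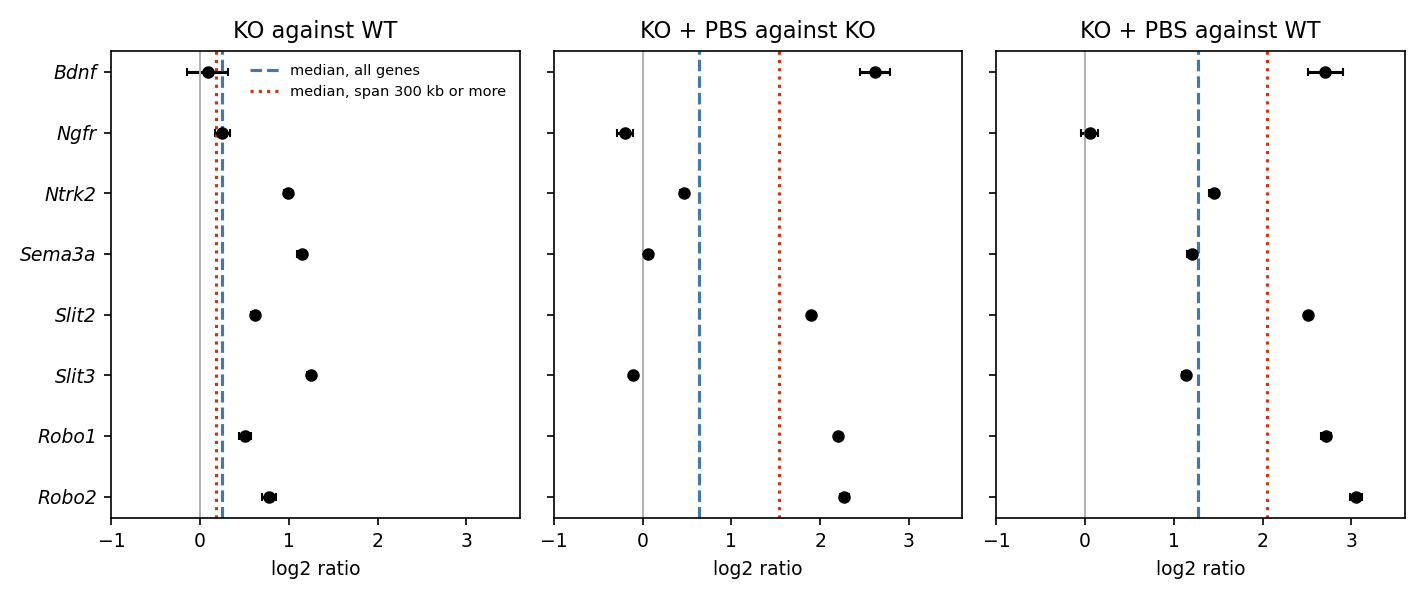
Log2 ratio of each gene between libraries for the 3 comparisons, with 95% intervals as bars, a dashed line at the median of all genes tested and a dotted line at the median of genes spanning 300 kb or more. Bdnf, Slit2, Robo1 and Robo2 lay right of both lines in both comparisons with KO+PBS, and Ngfr, Sema3a and Slit3 lay left of both there.

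To place the genes among cells, barcodes rich in markers of 1 of 20 lists were summed for each library. Such a barcode held at least 3 markers of a list, with a summed marker count whose Poisson tail probability at the share of the library was under 1e-06. Most barcodes met no list, 93.5% in WT, 94.3% in KO and 97.3% in KO+PBS, and these barcodes carried between 74.96% (Ntrk2 in WT) and 95.6% (Bdnf in KO) of the UMIs of a gene. In the 25% of barcodes with the fewest UMIs, which can hold free RNA, 7 of the 24 pairs of gene and library lay below the library with intervals apart, 6 of them in KO+PBS and the other for Slit3 in KO, and Slit2 in WT and KO lay above it. Marker-rich groups are ranges and not pure types. In the corneal endothelium group the median barcode held 16, 13 and 20 UMIs of its own list in WT, KO and KO+PBS, beside 129, 107 and 43 UMIs of corneal epithelium markers. In that group 24.8%, 33.9% and 33.8% of barcodes lay near the threshold, with a tail above 1e-08. Levels in groups are given for groups of at least 100000 UMIs unless a smaller group is named. In 19 of the 24 pairs the group with the highest level stood at least 2-fold above the library with its interval above it. The highest of many groups was taken for each pair, and the share of all genes that would pass was not computed. The count is therefore no result about the 8 genes. Some of these pairs rest on few UMIs, such as Bdnf in KO+PBS with 4 and Robo2 in WT with 5.

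Slit2 was highest in the corneal endothelium group of every library, the cell layer that pumps fluid from the stroma. It was at 159 UPM there in WT (143 to 177), 243 in KO (216 to 273) and 1295 in KO+PBS (1242 to 1349), from 521, 280 and 535 barcodes. These levels were 5.37, 5.36 and 7.65 times those of the whole library. The barcodes of KO+PBS with the fewest UMIs had Slit2 at 95.8. Between KO and WT the group gave a log2 ratio of 0.61 for Slit2 (0.38 to 0.84) and 0.94 for Slit3. Bdnf, Ngfr, Robo1 and Robo2 had too few UMIs to be counted, with Robo2 at 1.27 (0.20 to 2.38). None of the other genes was counted there, where 14.3% of 7435 genes were higher and 2.82% lower. Between KO+PBS and KO, Slit2 had 2.41, Slit3 1.31, Sema3a 1.62, Robo1 2.63 and Robo2 2.32 in this group and all 5 were counted, where 22.3% of 8622 genes were higher and 5.63% lower. Bdnf and Ngfr had too few UMIs there, and Ntrk2 had 0.23. Car3, Cldn10 and Slc4a11 were among its 10 leading genes in WT and KO, and Fgf10 and Col4a3 led it in KO+PBS, where Slit2 itself was among the 10 leading genes.

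Slit3 and Sema3a were high in the stromal group rich in C1qtnf7, Pde7b and Chsy3. Slit3 was at 221 UPM in WT (191 to 254), 180 in KO (157 to 205) and 203 in KO+PBS (161 to 253), from 177, 239 and 116 barcodes. The 3 Slit3 intervals overlapped. The rise from WT to KO seen over the library was not seen within this group, at -0.29 on the log2 scale (-0.58 to -0.009). Sema3a was at 71.7 in WT (55.2 to 91.6), 108 in KO (90.7 to 128) and 100.1 in KO+PBS (71.2 to 137). It had a log2 ratio of 0.60 (0.15 to 1.05) for KO against WT. Its highest group in KO+PBS was that of vascular or lymphatic endothelium markers, at 187 (133 to 255). In the stromal group rich in C1qtnf7, Bdnf and Ngfr had too few UMIs between KO and WT. None of the other genes was counted in this stromal group, where 13.6% of 6197 genes were higher and 2.76% lower. Slit2 in the same group was at 37.0, 51.3 and 768. Between KO+PBS and KO, Slit2 was counted as higher in every group with at least 100000 UMIs in both libraries. Its log2 ratio went from 1.42 in the macrophage group to 3.90 in this stromal group. The share of all genes higher in those groups was between 8.75% (lens) and 28.6% (melanocyte). The melanocyte and retinal pigment epithelium groups of KO held only 6 and 2 Slit2 UMIs, and the keratocyte group was too small to compare. In KO+PBS the melanocyte, corneal epithelium and photoreceptor groups are named by their lists, so this is no result about each cell type. In the stromal group rich in C1qtnf7, Robo1 was at 41.5, 35.9 and 175 and Robo2 at 34.7, 31.8 and 139. Between KO+PBS and KO, Slit2, Robo1 and Robo2 were counted, where 15% of 5777 genes were higher and 7.7% lower. The median barcode of this group in KO+PBS also held 12 UMIs of melanocyte markers, against 2 in WT and 0 in KO. The summed markers of this group were at 108 UPM in WT, 325 in KO and 297 in KO+PBS over the whole library, and their part in the Slit3 and Sema3a levels was not tested.

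Ntrk2 was highest in the keratocyte group, the collagen-producing cells of the stroma, in WT and KO. It was at 107 UPM in WT (99.97 to 115) and 94.5 in KO (87.5 to 102), from 1902 and 1818 barcodes. Within the group the log2 ratio was -0.18 (-0.33 to -0.03), while over the whole library it was 0.99. Barcodes that met no list held Ntrk2 at 16.1 in WT and 37.2 in KO. Bdnf had too few UMIs in the keratocyte group. None of the other genes was counted in it, where 16.6% of 12224 genes were higher and 2.77% lower. Slit3 had 0.33 there, Sema3a 0.52, Slit2 0.54, Robo2 0.87 and Robo1 0.05. The summed keratocyte markers were at 1250 UPM in WT, 4133 in KO and 2463 in KO+PBS, and their part in the Ntrk2 ratio over the library was not tested. The group held 24 barcodes in KO+PBS with 3 Ntrk2 UMIs, too few to compare.

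Other groups did hold counted genes between KO and WT. The corneal epithelium group held 658 barcodes in WT and 1103 in KO, with 52.3% and 53.3% of them near the threshold. Summed markers of its list were already at 51137 and 33214 UPM over these libraries. A barcode had to exceed that share, so the group does not stand for the whole epithelium. In this group Slit3 was at 10.2 UPM in WT and 29.5 in KO (log2 ratio 1.53, 1.05 to 2.04). Sema3a was at 8.39 and 18.0 there (1.10, 0.55 to 1.69). Ngfr had 12 and 53 UMIs, 2.72 and 9.66 UPM (1.83, 0.90 to 2.87). These 3 were counted, where 20.4% of 10179 genes were higher and 1.81% lower, and Ntrk2 had 0.98 (0.53 to 1.45). In the conjunctival epithelium group Slit3 at 1.92, Sema3a at 1.48 and Slit2 at 1.38 were counted, where 18.2% of 5211 genes were higher and 2.69% lower, and Ntrk2 had 1.18 (0.23 to 2.22). In the lens group Ntrk2 at 1.19 and Slit3 at 1.09 were counted, where 15% of 6118 genes were higher and 2.89% lower. These 3 groups were named because they held counted genes, so Slit3 in all 3 of them is no result of its own. Slit3 was tested and not counted in the corneal endothelium (0.94), photoreceptor (1.02), macrophage (1.06) and melanocyte (1.18) groups. Sema3a in the lens group, with 26 UMIs in WT and 19 in KO, fell below the UMI minimum. None of Slit3, Sema3a and Ntrk2 was counted in the stromal groups where they were highest in WT and KO. The levels of Slit3 and Sema3a in the epithelial groups lay below the library in WT, and barcodes with the fewest UMIs held Slit3 at 23.7 in WT and 54.3 in KO. Summed keratocyte markers in the corneal epithelium group were at 641 UPM in WT and 2385 in KO, and the part of RNA from other cells in these ratios was not tested. Slit3 was also counted in the basal and limbal epithelium group (1.34, 0.91 to 1.78), where 15.8% of 9578 genes were higher and 2.83% lower. That group in WT had 3 markers of another list and 1 of its own among its 10 leading genes. Its values are therefore only set side by side, with Slit3 at 16.1 in WT and 40.8 in KO and Ntrk2 at 14.3 and 22.0.

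In KO+PBS the Robo genes were highest in barcodes rich in neuron markers. Robo1 was at 482 UPM there (425 to 545) and Robo2 at 522 (462 to 588), from 119 barcodes. In the melanocyte group of that library Robo1 was at 349 (313 to 387) and Robo2 at 372 (335 to 411). The melanocyte group of WT held them at 19.9 and 13.9. The groups of this list were unlike in the 2 libraries. In WT the 10 leading genes held Pmel, Dct, Mlana and Tyrp1. In KO+PBS Kcnip4 and Npsr1 led the group, and only Tyr and Oca2 of the list were among the 10. The melanocyte group of KO+PBS is thus named by its list, and these levels are only set side by side. Slit2 was at 644 in the neuron group of KO+PBS and Ntrk2 at 111. None of the 13 neuron markers was among the 10 leading genes of that group, so it is named by its list alone and was not compared between libraries. The summed neuron markers were at 23.6 UPM in WT, 14.8 in KO and 358 in KO+PBS, with Snap25 at 4.14, 2.13 and 100.1. Scn10a, a sodium channel of sensory neurons, was at 0.219, 0.0256 and 2.10, from 56, 9 and 374 UMIs. Of the 13 neuron markers only Calca and Prph were higher in KO than in WT. Calca was at 0.344 in KO against 0.207 in WT, and Prph at 0.205 against 0.137. Barcodes of the neuron, melanocyte, retinal pigment epithelium, photoreceptor, Mueller glia, lens and skeletal muscle groups held 2.33% of the UMIs of KO+PBS. Without them Robo1 had a log2 ratio of 2.15 between KO+PBS and KO, Robo2 2.20 and Slit2 1.88, close to the values over all barcodes. The part of RNA from such cells in other barcodes was not tested.

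Ngfr and Bdnf had few UMIs in any marker-rich group. Among groups of at least 100000 UMIs, Ngfr was at most 13.4 UPM in WT and 15.5 in KO, both in the stromal group rich in C1qtnf7, with 12 and 19 UMIs. In KO+PBS it was highest in the corneal epithelium group, at 17.6 (10.2 to 28.1) from 17 UMIs, 2.21 times the library. That group is named by its list alone, since its 10 leading genes in KO+PBS held 0 markers of the list and 1 of another. Schwann cells, which ensheath corneal nerves and are a known site of Ngfr, gave groups of 19, 6 and 2 barcodes with 1, 1 and 0 Ngfr UMIs. The depth therefore sets no useful level for Ngfr in Schwann cells. In KO+PBS Bdnf was highest in the B cell group, at 33.5 UPM (9.12 to 85.7) from 4 UMIs. It had 14 UMIs in the neuron group, 26.7 UPM (14.6 to 44.8), and 23 in the corneal endothelium group, 13.3 (8.41 to 19.9), against 6.69 in the whole library. The macrophage group at 15.4 and the retinal pigment epithelium group at 14.4 had 5 Bdnf UMIs each. In the endothelium group of WT it had 9 UMIs, 4.22 (1.93 to 8.005), against 1.03 in that library, and in the group of KO 1 UMI.

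**Figure D3:**
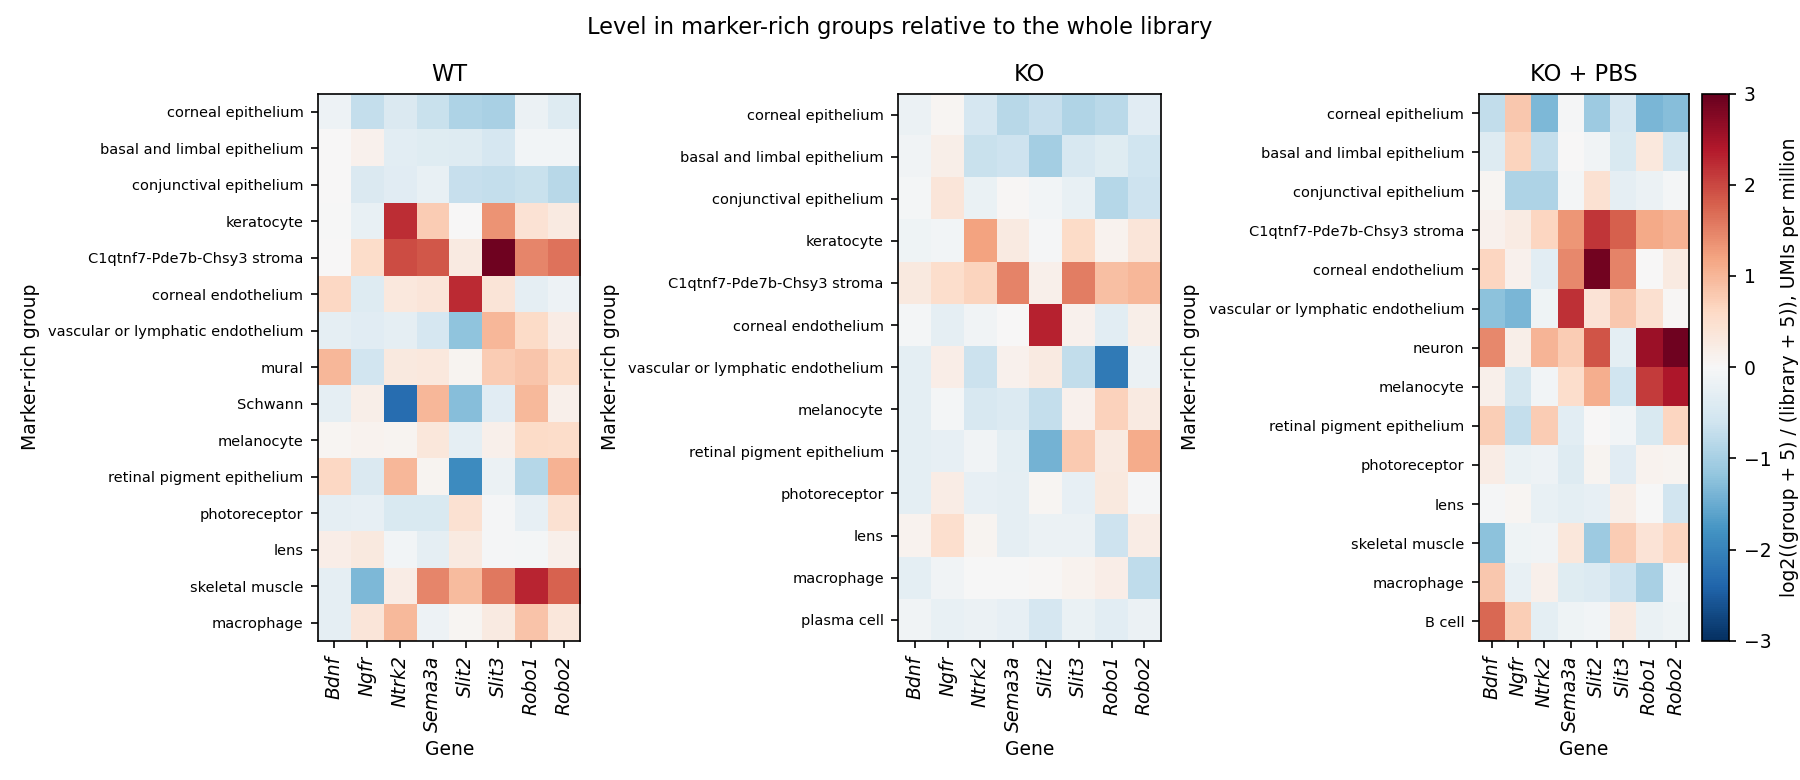
Level of each gene in marker-rich groups of at least 100000 UMIs relative to the whole library, as log2 of the ratio after adding 5 UPM to both, for WT, KO and KO+PBS. Slit2 stood out in the corneal endothelium row of all 3 panels, Ntrk2 in the keratocyte row of WT and KO, Slit3 and Sema3a in the C1qtnf7-Pde7b-Chsy3 row, and the Robo genes in the neuron and melanocyte rows of KO+PBS.

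The spread of UMIs over barcodes also differed. Barcodes with at least 3 Slit2 UMIs held 8.99% of them in WT, 7.78% in KO and 32.6% in KO+PBS. For Robo1 the shares were 5.71%, 2.40% and 23.6%, and for Robo2 4.14%, 1.74% and 17.9%. For Slit3 they were 11.6%, 9.87% and 6.69%. These shares grow with the total of a gene, which differed between libraries. UMIs spread over barcodes by depth alone would give 20.4, 83.9 and 447.5 barcodes with at least 3 Slit2 UMIs in WT, KO and KO+PBS, and 196, 375 and 2054 were found. The ratio of found to spread was 9.62, 4.47 and 4.59 for Slit2. For Robo1 the ratio was 28.8, 9.27 and 13.5, for Robo2 52.3, 9.99 and 15.8, and for Slit3 17.0, 3.50 and 8.48. This ratio counts a barcode once however many UMIs it holds, and the Robo ratios in WT rest on 43 and 24 barcodes, so no order of the libraries is read from it. No barcode of WT or KO held more than 7 Slit2 UMIs. In KO+PBS 135 barcodes held 10 or more, with up to 74 in 1 barcode. Of these, 60 were in the corneal endothelium group, 52 met no list, 9 were in the neuron group and 7 in the stromal group rich in C1qtnf7. For Robo1, 34 barcodes held 10 or more, of which 9 were in the melanocyte group, 7 in the neuron group and 15 in no list. In the 25% of KO+PBS barcodes with the fewest UMIs Slit2 was at 95.8 UPM against 169 in the library, Robo1 at 47.8 against 77.1 and Robo2 at 36.4 against 64.9. Those low-UMI levels still lay above the library levels of WT and KO.

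**Figure D4:**
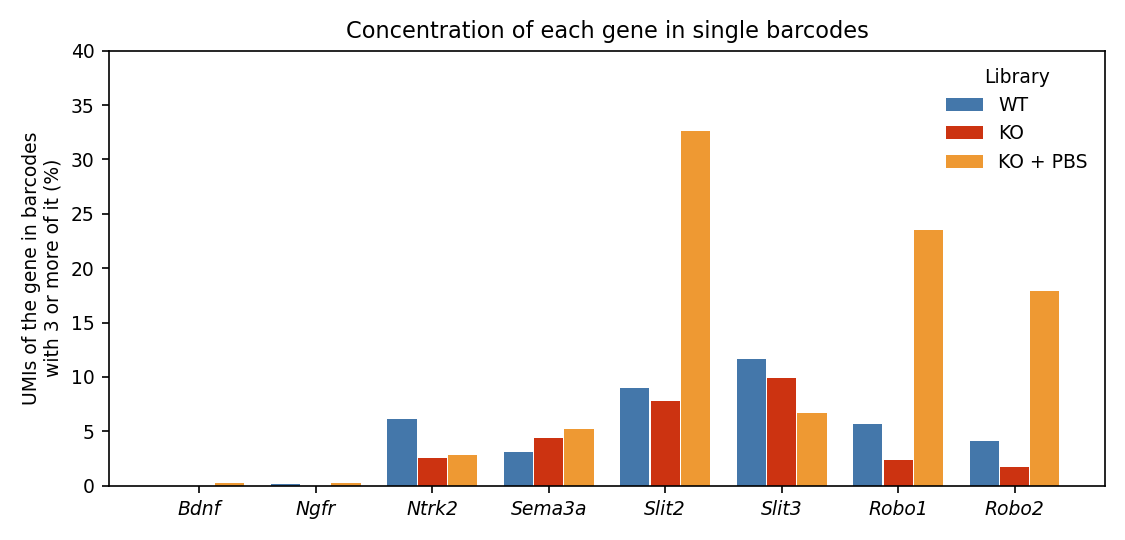
Share of the UMIs of each gene, in percent, that fell in barcodes with 3 or more UMIs of that gene, with 1 bar per library. Slit2, Robo1 and Robo2 reached 32.6%, 23.6% and 17.9% in KO+PBS and stayed under 10% in WT and KO, a share that also grows with the total of the gene.

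Likeness was measured as Pearson's r of log2(UPM + 1) over 42 groups of at least 100000 UMIs from the 3 libraries, among 16901 genes. The groups share libraries and depth, so these values only describe. Among the 8, Robo1 and Robo2 were most alike at 0.84, then Sema3a and Slit3 at 0.76 and Slit2 and Robo2 at 0.73, and Ngfr had between -0.17 and 0.09 with the others. Of all genes, Cdc42bpa at 0.90, Slc38a1 at 0.89 and Zfhx4 at 0.88 were most like Slit2. Erg at 0.87, Itgbl1 and Dkk2 were most like Slit3, and Zfp521, Cped1 and Rbms3 at 0.86 most like Sema3a. Magi2 at 0.94, Kcnip4 and Pde10a were most like Robo2, and Synpr at 0.90, Negr1 and Gria3 most like Robo1. Mamdc2 at 0.83, Preb and Ubr1 were most like Ntrk2. Mpp3 at 0.85, Cend1 and Sv2a were most like Bdnf, and Col7a1 at 0.71, Ipp and Gpt most like Ngfr.

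The other genes of the same families were read from 7 lists with 104 genes. Between KO and WT 25 of the 102 with enough UMIs were higher and 5 lower, 24.5% and 4.90%, close to the background of 20.6% and 8.63%. Sema4f had a log2 ratio of 3.53 and Sema7a of 3.02. Cntf, a neurokine, was lower at 4.87 in KO against 13.1 in WT (-1.43), but it lies wholly within Zfp91 on the same strand, so its counts are uncertain. Epha5 had -1.24 and Artn, a GDNF family ligand, -1.17. Of 11 neuropilins and plexins 5 were higher and 0 lower, which were Nrp1, Nrp2, Plxna1, Plxnc1 and Plxnd1. Nrp1, the binding receptor of Sema3a, was at 11.9, 38.9 and 62.1 in WT, KO and KO+PBS, and Plxna1, a signalling partner, at 8.40, 18.3 and 12.6. The related Plxna2, Plxna3 and Plxna4 were not counted between KO and WT, with log2 ratios of 0.67, 0.62 and 0.84. Between KO+PBS and KO they had 0.70, 0.41 and 1.52, and Plxna1 had -0.54. These receptors and Nrp2 were named as partners of the 8 genes after their values were seen.

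Between KO+PBS and KO 46 of 103 family genes were higher and 1 lower, beside 39.9% and 4.7% of all genes. Sema5b had a log2 ratio of 4.77, Epha8 4.75 and Epha5 4.52, and Cntf was the one lower gene. Among Slit and Robo partners 5 of 9 were higher, which were Slit1, Robo3, Robo4, Srgap1 and Flrt3. Ntrk3, Sort1, Sorcs1 and Sorcs3 of the neurotrophin list were higher as well. Ntrk3, the receptor TrkC, was at 8.59, 11.8 and 35.6 UPM in WT, KO and KO+PBS, while its ligand Ntf3 was at 41.2, 44.8 and 22.5. Over 2.60% of its span Ntrk3 overlaps, on the same strand, a gene that KO+PBS does not list. Between KO+PBS and WT 66 of 103 were higher and 3 lower, beside 57% and 4.06% of all genes, and Sema7a at 4.18, Ntng2 at 4.04 and Plxnb3 at 3.95 had the largest ratios. The 3 lower genes were Cntf at -6.94, Efna3 at -1.98 and Efna4 at -1.17. Ntng2 overlaps a gene that KO+PBS does not list, and Efna3 and Efna4 have antisense neighbours.

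**Figure D5:**
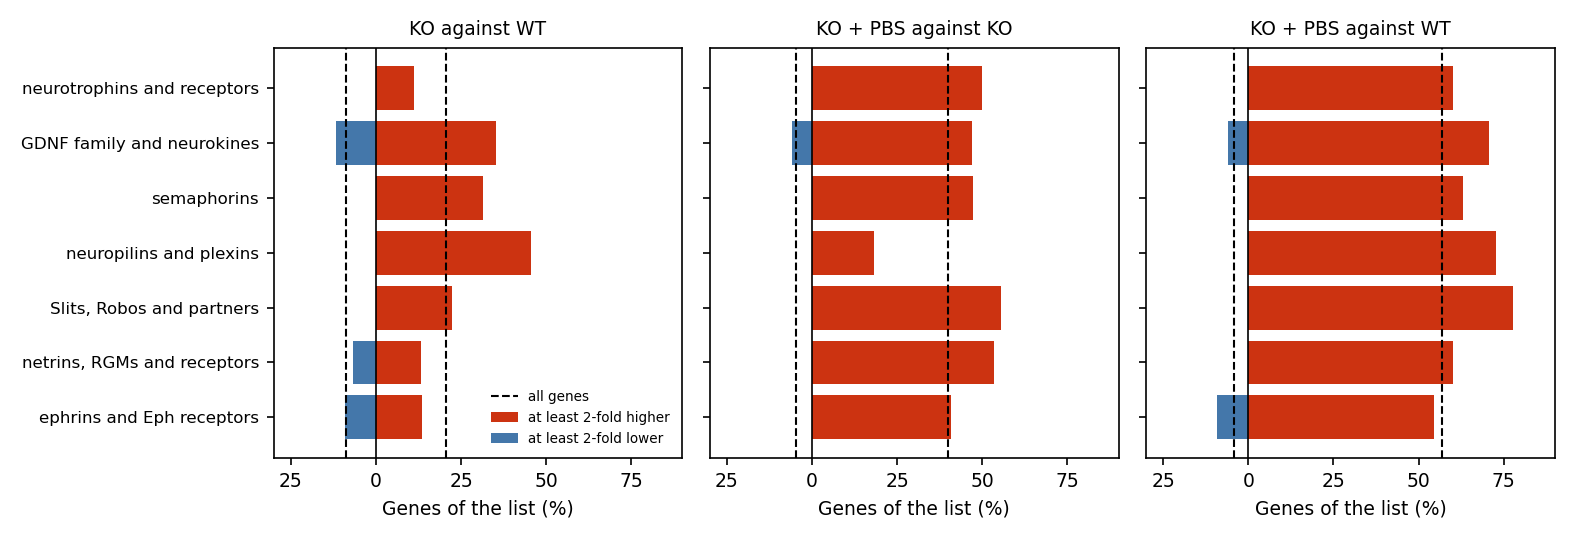
Share of the tested genes of each list, without the 8 members, that were at least 2-fold higher (red, right) or lower (blue, left), in percent, for the 3 comparisons, with dashed lines at the share of all genes. Neuropilins and plexins had the largest higher share in KO against WT at 45.5%, and Slits, Robos and partners in KO+PBS against KO at 55.6%.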

How the data were processed

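Single-nucleus libraries (10x Genomics 3' kit, per the labels' protocols) were read from the UMI counts that the authors deposited per gene and barcode, whole numbers without normalization. Cell Ranger 7.0.1 produced them, per the file headers, on mm10, per the submitters' processing notes. The annotation, the intron setting and the barcode filter are not given in the sources used here. WT and KO list 32285 genes and KO+PBS 31053, and the 30406 shared IDs were used. All barcodes were kept.

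UMIs were summed per library or marker-rich group with scipy 1.17.1, numpy 2.4.6 and pandas 2.3.3 in python 3.11.15, and drawn with matplotlib 3.10.9. Ratios set counts below 3 to 3. With 1 library per group no p-value is given, and the rule of size was tested on simulated data. Factors from edgeR 4.0.16 (R 4.3.3) served as an alternative scaling. Ntn3 and Lim2 were not matched. The 8 genes, lists and markers were chosen with earlier results of these data known. Named list genes are, for each comparison, the 3 counted with the highest and the 3 with the lowest ratio at 1 UPM or more in the higher library, and for likeness the 3 with the highest r. Other list genes were named after their values were seen. Some genes of the lists are not reported here.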

Additional observations from a re-analysis of the deposited data

How the results depend on the processing

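No paired analysis was possible because there was 1 library per group, and for the same reason no library could be left out. Of the 8 genes, none changed the sign of its log2 ratio in any comparison under the other sets of genes in the total, the filter on genes and mitochondrial share, without the 25% of barcodes with the fewest UMIs or without non-corneal groups. Within those low-UMI barcodes alone the order turned for Sema3a in KO+PBS against KO (28.0 and 35.2 UPM), Bdnf in KO against WT (0.850 and 1.19) and Ngfr in KO+PBS against WT (8.38 and 8.57). Signs turned with centring and, for Bdnf in KO against WT, Ngfr in KO+PBS against WT and Ntrk2 and Sema3a in KO+PBS against KO, with TMM factors. Scaling mattered, and centring on genes spanning 100 kb or more and leaving out non-corneal groups were chosen after seeing the data. Centred on the median gene, the genes higher in KO against WT went from 2 to 0, and in KO+PBS against WT from 7 to 4 with 1 lower, Sema3a at -0.067 and Slit3 at -0.13. TMM factors gave 4 higher there. Centred on long genes the same numbers were 0 and 3 with 1 lower, Ntrk2 at -0.21, Sema3a at -0.46 and Slit3 at -0.52, and 1 was lower in KO+PBS against KO. For family genes, KO against WT gave 13 higher and 15 lower centred on long genes and 13 lower centred on the median. KO+PBS against KO gave 28 higher and 26 lower on long genes, 20 lower on the median, 20 with TMM and 2 without immunoglobulin genes in the total. KO+PBS against WT gave 41 higher and 21 lower on the median, 24 and 27 on long genes and 13 lower with TMM. For all genes, KO against WT gave 2501 higher and 3436 lower on long genes and 2872 lower with no UMI minimum. KO+PBS against KO gave 2891 lower on the median, 3171 with TMM and 4146 on long genes. KO+PBS against WT gave 6558 higher and 5106 lower on the median, 4888 and 7283 on long genes and 2935 lower with TMM. Another 135 recomputed counts stayed within 1.5 times. The cause was not tested. Bdnf in WT and KO, with 263 and 383 UMIs, is the least precise of the 8.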
